A study of Mus musculus with 4 samples.

Results

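The transforming growth factor β (TGF-β) ligands Tgfb1, Tgfb2 and Tgfb3, the kinase receptors Tgfbr1, Tgfbr2 and Acvrl1, and the co-receptors Tgfbr3 and Eng were followed in cardiac Sca-1 cells. These genes were taken as every probe set that the array's annotation assigns to their symbols, which gave 8 of 18193 annotated genes and 19 of 45037 probe sets, none of them shared with another gene. Sca-1 cells had been sorted with magnetic beads from hearts of FVB mice aged 6 weeks. Cyc cells came from double-transgenic αMHC-CyclinT1/Gαq overexpressing mice, a heart failure model, and Wt cells came from their wildtype littermates. The study states that the α-MHC promoter limits the effect of the transgenes to cardiomyocytes. Its supplement gives 1 probe set of Gnaq, the Gαq gene, as significantly higher in Cyc cells. For the other Gnaq probe sets the study detected no difference. There were 2 pools per genotype, each of cells from 2 to 3 mice of either sex, and each pool was read on 1 array. A gene is read here as a deposited intensity in arbitrary units, and intensities of different probe sets are not comparable with each other. In such bulk samples a smaller share of one cell type and less RNA per cell cannot be told apart.

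TGF-β is secreted in a latent form, bound to its own propeptide and often to a latent TGF-β binding protein that anchors it in the matrix. Once freed, the ligand binds Tgfbr2, which recruits and phosphorylates Tgfbr1 (ALK5), and the complex phosphorylates Smad2 and Smad3, which enter the nucleus with Smad4. Tgfbr3 (betaglycan) presents the ligand, above all TGF-β2. Eng (endoglin) and Acvrl1 (ALK1) are enriched in endothelium, where they direct signals of bone morphogenetic proteins and TGF-β to Smad1 and Smad5. In the heart the pathway is known for driving matrix production by fibroblasts.

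Intensities are given first for the Cyc pools of experiments 1 and 2 and then for the Wt pools of experiments 1 and 2. The replicate numbers were taken as the 2 independent experiments of the study, since 15 probe sets for control transcripts added at labelling had medians of 205.6 and 182.8 in the Cyc and Wt arrays numbered 1 and of 0.1 and 1.2 in those numbered 2. Tests were run on the 20680 probe sets that reached 50 on at least 2 arrays, and over these the array medians were 197.6 and 280.5 for Cyc against 219.4 and 260.7 for Wt cells. The Cyc array of experiment 1 was the lowest of the 4 at 51.0% of the tested probe sets. Log2 differences were computed after adding 16 to each intensity and understate those of dim genes. The number of arrays limits the precision. The study's thresholds were a 2-fold change and a p under 0.05 from its own error model. Here they were applied with the unadjusted p of limma. With limma 0.735% of the tested probe sets passed as higher and 0.116% as lower in Cyc cells, or 0.924% and 0.227% with the experiment as a block. These are 0.851% in either direction, and 1.15% with the block. In limma every adjusted p was 1, so 0 probe sets were under 0.05 after adjustment, and 412 probe sets (1.99%) had an unadjusted p under 0.05. With the experiment as a block 1 probe set, of no TGF-β ligand or receptor, had an adjusted p under 0.05 and 1443 (6.98%) had an unadjusted p under 0.05.

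All 8 genes were measured by at least 1 tested probe set, 13 in all. None of the 13 passed the thresholds in either direction, and the smallest unadjusted p was 0.111 (limma, adjusted p = 1). The log2 fold changes, Cyc over Wt, ran from -0.62 to 0.38 with standard errors from 0.24 to 0.68, and each 95% confidence interval included 0. For 4 of the 13 the interval lay within 1 log2 unit of 0 on either side, so a 2-fold change lay outside it. For the other 9 a 2-fold change in at least 1 direction is not excluded by these arrays. An exact permutation test of 2 pools against 2 cannot give a two-sided p below 0.333.

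**Figure D1:**
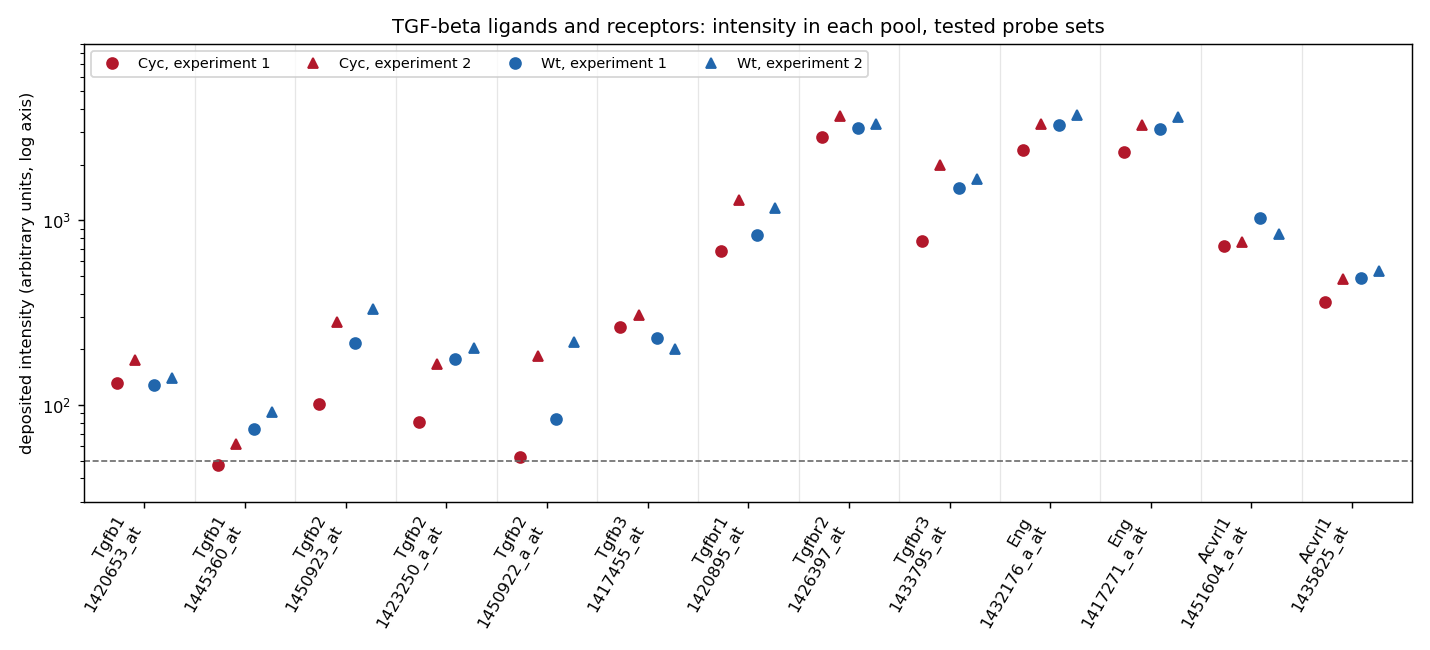
Deposited intensity (log axis) in each pool for the 13 tested probe sets of the TGF-β ligands and receptors, coloured red for Cyc and blue for Wt, as circles in experiment 1 and triangles in experiment 2, with a dashed line at 50. The Cyc pool of experiment 1 is the lowest of the 4 points in 11 of the 13 columns.

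Among the ligands, Tgfb1, the most widely expressed isoform, was read by 2 probe sets that went in opposite directions. The probe set 1420653_at had intensities of 132.2 and 175.2 for Cyc against 129.0 and 139.7 for Wt cells, which put its log2 fold change at 0.16 (standard error 0.25). The pools overlapped, as the Cyc pool of experiment 1 lay between the Wt pools, and without the Cyc pool of experiment 2 the value was -0.02. The probe set 1445360_at was read at 47.2 and 61.3 for Cyc against 74.5 and 91.4 for Wt cells, which gave a log2 fold change of -0.50 (0.25). Here both Cyc pools lay below both Wt pools, near the limit of 50. The difference at this probe set was -0.52 in experiment 1 and -0.47 in experiment 2. Blocking on the experiment gave it an unadjusted p of 0.0428 (limma, adjusted p = 0.704) at less than a 2-fold change. The probe sets therefore fix no direction for Tgfb1.

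Blood-derived cells are known sources of Tgfb1. The 7 macrophage markers summed to intensities of 237.2 and 610.0 for Cyc against 223.7 and 146.1 for Wt cells, and the 4 platelet markers to 521.4 and 312.2 for Cyc against 500.3 and 448.9 for Wt cells. Of these, Fcgr1 and Gp9 lay below 50 in every pool, and 2 of the 7 macrophage and 3 of the 4 platelet markers could be tested. The 3 B cell markers summed to 73.0 and 248.9 for Cyc against 59.3 and 47.3 for Wt cells, and none could be tested. The 4 markers of T and NK cells, of which 2 could be tested, summed to 174.7 and 308.3 for Cyc against 76.7 and 126.2 for Wt cells. Cd79a of B cells and Cd3e of T cells lay below 50 in every pool. Gzma, at 103.4 and 175.5 for Cyc against 42.0 and 39.1 for Wt cells, entered the test through its Cyc pools alone, so its passing as higher is no support for a difference. The part of these cells in the Tgfb1 values was not tested.

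Tgfb2, the isoform most dependent on betaglycan, was lower in the Cyc than in the Wt pool of both experiments at each of its 3 tested probe sets. These share 1 source transcript and are not independent. At 1450923_at the intensities were 101.0 and 282.4 for Cyc against 215.7 and 330.0 for Wt cells. Its pools overlapped, since the Cyc pool of experiment 2 lay above the Wt pool of experiment 1. At 1423250_a_at they were 81.1 and 167.4 for Cyc against 176.4 and 203.4 for Wt cells, with no overlap. At 1450922_a_at they were 52.3 and 183.3 for Cyc against 84.4 and 218.1 for Wt cells, which parts the experiments more than the genotypes. The log2 differences in experiment 1 were -0.99, -0.99 and -0.56 at these probe sets, and in experiment 2 they were -0.21, -0.26 and -0.23. The fitted values were -0.60 (standard error 0.53), -0.62 (0.38) and -0.39 (0.68). With the experiment as a block the unadjusted p of 1423250_a_at was 0.0478 (limma, adjusted p = 0.715), again at less than a 2-fold change. Without the Cyc pool of experiment 2, 1423250_a_at and 1450923_at passed the thresholds with -1.08 and -1.28, in a fit in which the median of all tested probe sets shifted to -0.19 and 1050 of them passed as lower. Without the Cyc pool of experiment 1, the fitted values of 1450922_a_at and 1450923_at were 0.38 and 0.08. A further probe set, 1438303_at, lay below 50 in every pool.

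The stretch before the start of Tgfb2 is shown with that of Eng, the genes whose tested probe sets were each lower in Cyc cells in both experiments and whose promoters are in the RefSeq table (GRCm38.p6), which holds 5 of the 8 genes. Each line gives the 250 bases before the start site, from chr1:186705990-186706239 on the minus strand for Tgfb2 and chr2:32646345-32646594 on the plus strand for Eng. Capitals mark the E-box word CACGTG and the TATA-box word TATAAA in Tgfb2, and in Eng the word AGGAAG, which reads CTTCCT where it lies on the opposite strand.
Tgfb2: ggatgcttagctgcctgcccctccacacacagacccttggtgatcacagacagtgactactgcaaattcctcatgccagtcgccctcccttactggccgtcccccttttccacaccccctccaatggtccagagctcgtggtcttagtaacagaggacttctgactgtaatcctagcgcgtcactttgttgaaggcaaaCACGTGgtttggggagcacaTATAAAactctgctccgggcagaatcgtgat
Eng: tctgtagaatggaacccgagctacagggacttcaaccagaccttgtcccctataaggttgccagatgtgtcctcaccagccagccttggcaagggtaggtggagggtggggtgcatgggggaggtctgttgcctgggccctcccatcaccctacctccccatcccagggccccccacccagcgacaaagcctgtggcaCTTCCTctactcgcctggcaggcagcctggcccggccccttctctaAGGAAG

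On either strand, the TATA-box word TATAAA occurs in 12.4% and the E-box word CACGTG in 6.02% of all 32851 promoter windows of this length. Tgfb2 holds each of them 1 time and Eng neither. AGGAAG, which holds the GGAA core bound by ETS factors, occurs in 29.5% of the windows, 2 times in Eng and not in Tgfb2. Neither window holds GGGCGG, found in 32.7% of all windows, or the palindromic Smad word GTCTAGAC, found in 0.167%. The words do not overlap each other. These matches describe the letters alone.

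Tgfb3, an isoform known from mesenchymal and injured tissue, was the only ligand with no Wt pool as bright as either Cyc pool. Its single probe set had intensities of 262.9 and 305.8 for Cyc against 230.5 and 200.2 for Wt cells, a mean of 284.3 ± 30.3 and of 215.4 ± 21.4 (SD, n = 2 pools each). Its log2 fold change was 0.38 (standard error 0.24, 95% confidence interval -0.25 to 1.0), with 0.18 in experiment 1 and 0.57 in experiment 2. It stayed between 0.27 and 0.48 when each pool was left out in turn and did not pass the thresholds in any of these fits.

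The kinase receptors of TGF-β itself had fitted differences near 0 that changed sign between the experiments. Tgfbr2, the receptor that binds the ligand first, was read at 2837.2 and 3683.0 for Cyc against 3154.6 and 3305.2 for Wt cells, with the Wt pools inside the range of the Cyc pools. It had a log2 fold change of 0.00 (95% confidence interval -0.66 to 0.67, limma, unadjusted p = 0.995), and its differences were -0.15 in experiment 1 and 0.16 in experiment 2. Tgfbr1, the signaling kinase ALK5, had intensities of 683.1 and 1293.1 for Cyc against 826.9 and 1167.4 for Wt cells. Again both Wt pools lay between the Cyc pools, and the order followed the experiments, as both pools of experiment 2 were brighter than both of experiment 1. Its log2 fold change was -0.06 (standard error 0.40), with -0.27 and 0.15 in experiments 1 and 2, so that its interval, from -1.12 to 0.99, includes 2-fold lower expression. Without the Cyc pool of experiment 1 the values of Tgfbr1 and Tgfbr2 were 0.39 and 0.19, and without that of experiment 2 they were -0.51 and -0.19.

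Tgfbr3, the co-receptor betaglycan, had Cyc minus Wt differences of opposite sign in the experiments. It was read at 773.5 in the Cyc pool and 1491.9 in the Wt pool of experiment 1, and at 1985.7 in the Cyc pool and 1675.4 in the Wt pool of experiment 2. The log2 difference was -0.93 in experiment 1 and 0.24 in experiment 2, and the fitted value was -0.35 (standard error 0.49). The Cyc pools lay on either side of both Wt pools and differed from each other by 2.57 times, against 1.12 times between the Wt pools. Without the Cyc pool of experiment 2 the value was -1.02 and passed the thresholds, and without that of experiment 1 it was 0.33. The 5 mesothelial markers also differed between the pools of a genotype, with summed intensities of 600.6 and 2110.8 for Cyc against 1193.2 and 669.9 for Wt cells, and the 6 airway markers with 351.5 and 10941.6 for Cyc against 2055.6 and 194.5 for Wt cells. Most of the larger airway sums came from Scgb1a1, at 118.5 and 10194.7 for Cyc against 1783.7 and 3.2 for Wt cells. Not every marker varied this way. Epcam of the airway was at 124.0 and 124.8 for Cyc against 113.0 and 69.8 for Wt cells. Wt1 of the mesothelium was at 478.2 and 596.4 for Cyc against 440.0 and 597.4 for Wt cells. These 3 were named after their values were seen. The part of these cell types in the Tgfbr3 values was not tested.

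**Figure D2:**
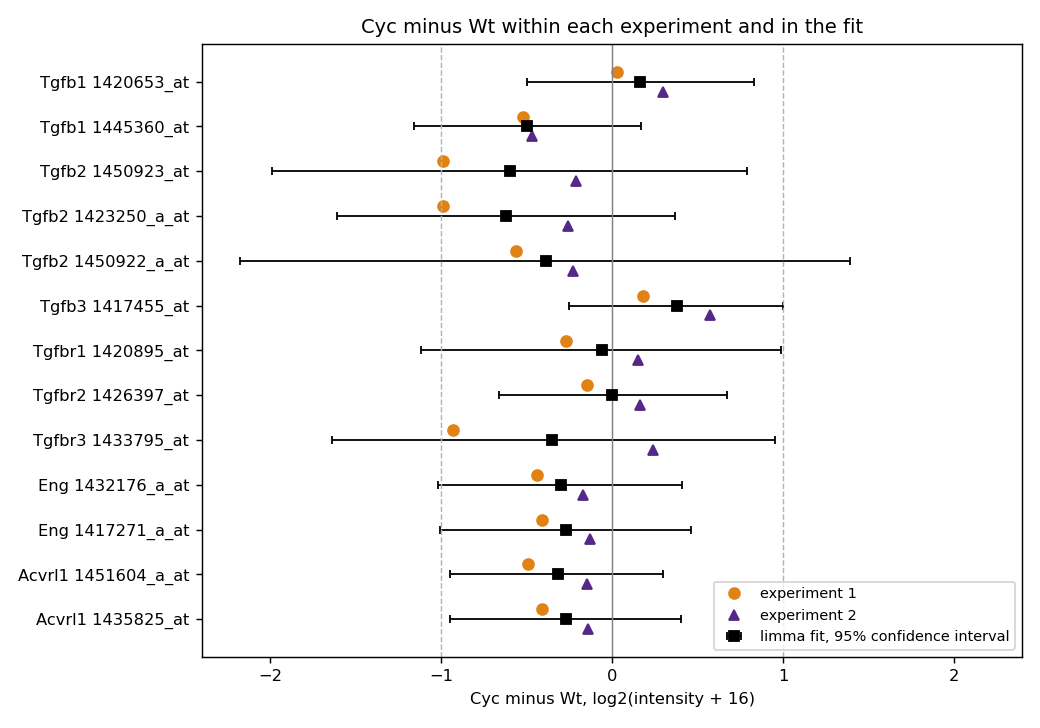
Cyc minus Wt difference of log2(intensity + 16) for the 13 tested probe sets, with orange circles for experiment 1, purple triangles for experiment 2, black squares with 95% confidence intervals for the limma fit and dashed lines at a 2-fold change. All 13 intervals cross 0, and the difference in experiment 1 lies left of 0 in 11 probe sets and that in experiment 2 in 8.

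Eng and Acvrl1, the endothelial pair, were lower in Cyc than in Wt cells in both experiments at each of their 4 probe sets, by less than 2-fold. Eng was read at 2415.0 and 3311.9 for Cyc against 3275.7 and 3724.6 for Wt cells by 1432176_a_at. The other Eng probe set, 1417271_a_at, gave 2344.0 and 3287.9 for Cyc against 3127.1 and 3603.0 for Wt cells. At both, the Cyc pool of experiment 2 lay above the Wt pool of experiment 1, so the genotypes overlapped. The log2 fold changes of Eng were -0.30 (standard error 0.27) and -0.27 (0.28). Acvrl1 was read at 725.9 and 758.1 for Cyc against 1027.3 and 845.1 for Wt cells by 1451604_a_at. Its other probe set, 1435825_at, gave 361.3 and 479.4 for Cyc against 484.8 and 529.6 for Wt cells. At both Acvrl1 probe sets the Cyc pools lay below both Wt pools, with log2 fold changes of -0.32 (0.24) and -0.27 (0.26). In experiment 1 the differences of the 4 probe sets ran from -0.49 to -0.41, and in experiment 2 from -0.17 to -0.13. The 4 values stayed below 0 when each pool was left out in turn, between -0.53 and -0.03.

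The 9 endothelial markers, which include Cdh5, Kdr and Pecam1, were above 50 in every pool. Their summed intensities were 37108.4 and 42208.3 for Cyc against 40567.7 and 43085.4 for Wt cells, lower in Cyc cells within each experiment, with a median log2 fold change of -0.19 and none past the thresholds. The markers did not all run this way. Vwf was at 2221.2 and 3646.9 for Cyc against 1638.3 and 1898.3 for Wt cells (log2 fold change 0.69, standard error 0.33). Cldn5 had 0.40 (0.35) with overlapping pools, from 0.87 in experiment 1 and -0.07 in experiment 2. Each Cyc pool lay above each Wt pool in 1 of the 9, Vwf, and below in 2, beside 18.5% and 7.49% of all genes. The part of the share of endothelial cells in the values of Eng and Acvrl1 was not tested.

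Across the 13 tested probe sets, both Cyc pools lay below both Wt pools in 4 (1 of Tgfb1, 1 of Tgfb2 and both of Acvrl1) and above them in 1 (Tgfb3). Over all tested probe sets this held for 8.23% and 15.1%. Cyc was the lower pool in both experiments in 8 of the 13 and the higher in 2, where these shares were 29.1% and 26.1% over all tested probe sets. The 8 probe sets stand for 4 genes, Tgfb1, Tgfb2, Eng and Acvrl1. Tgfb1 is among them by its dimmer probe set 1445360_at alone, and its brighter probe set 1420653_at is 1 of the 2 that were higher. With each gene at its brightest tested probe set, the median log2 fold change of the 8 genes was -0.18, beside -0.02 for all tested probe sets. It was -0.35 in experiment 1 and 0.15 in experiment 2, beside -0.10 and 0.06 for all tested probe sets, so its sign differed between the experiments. Without the Cyc pool of experiment 1 it was 0.26, when that of all tested probe sets was 0.18, and without the Cyc pool of experiment 2 it was -0.43, when that of all was -0.19.

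The remaining 6 of the 19 probe sets lay below 50 in every pool and were not tested. They belong to Tgfb2 (1), Tgfbr1 (2), Tgfbr2 (2) and Tgfbr3 (1), and their values ran from -3.3 to 46.9. Each of these genes was measured by another, tested probe set.

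The other genes of the pathway were grouped by role, with each gene at its brightest tested probe set. Of 56 measured genes 6 rose past the thresholds and none fell, where 0.911% of all genes taken in this way rose and 0.126% fell. With the experiment as a block 6 rose and none fell, where 1.13% and 0.174% of all genes did. Each Cyc pool exceeded each Wt pool in 18 of the 56 and lay below each in 2, where this held for 18.5% and 7.49% of all genes. The risen genes, with unadjusted p from 0.0018 to 0.0477 (limma, adjusted p = 1), were Ltbp2 and Thbs1 of the latent complex and its activation, and Ccn2, Postn, Eln and Nox4 among the target genes. No signal transducer and no inhibitor passed. Ltbp2, Ccn2, Postn, Eln and Nox4 are among the genes that the study selected from these same arrays. The role lists were also chosen with earlier results of these data known. The count of risen genes is therefore not independent evidence of a direction.

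**Figure D3:**
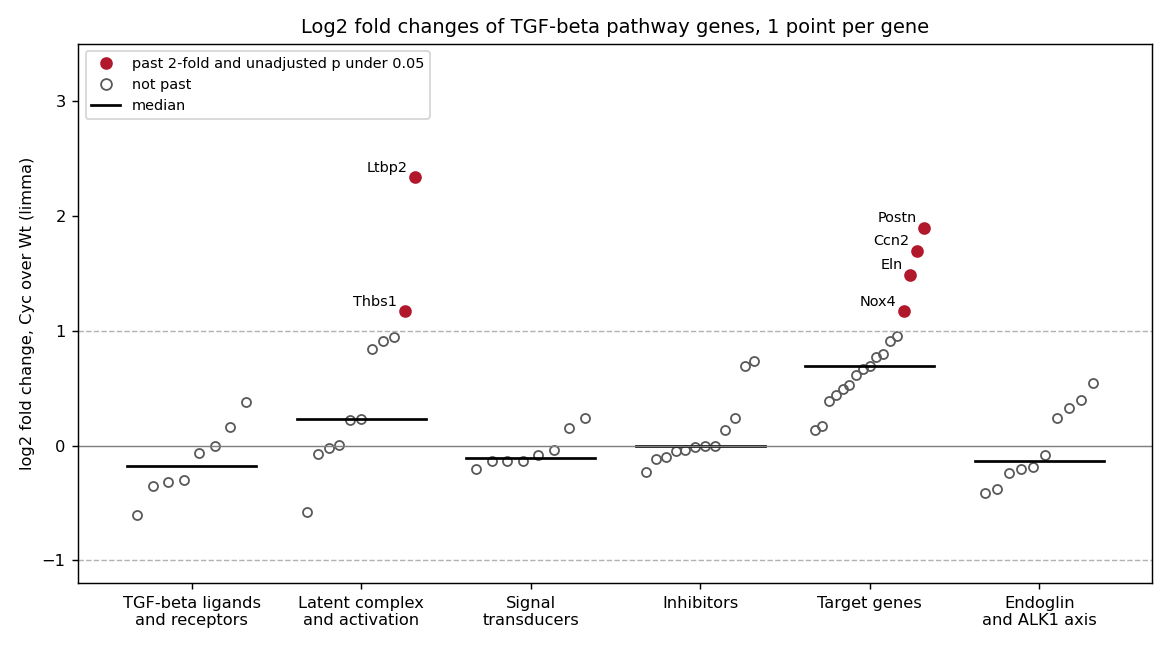
Log2 fold change, Cyc over Wt (limma), of the 8 ligand and receptor genes and of the genes in each role list, 1 point per gene at its brightest tested probe set, with medians as black lines, dashed lines at a 2-fold change and the 6 genes past both thresholds filled in red. The medians are -0.18 for ligands and receptors, -0.11 for signal transducers and 0.69 for target genes. The median of all tested probe sets is -0.02.

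Among 11 measured genes of the latent complex and its activation, 2 rose and 9 did not pass, where 0.911% of all genes rose. Their median was 0.23. Ltbp2, a matrix protein of the latent TGF-β binding family that does not itself bind the latent ligand, was at 386.3 and 713.0 for Cyc against 81.8 and 101.8 for Wt cells, and rose with a log2 fold change of 2.34 (standard error 0.37). Thbs1, thrombospondin 1, which can free the ligand from its propeptide, was at 369.8 and 514.4 for Cyc against 273.3 and 123.0 for Wt cells (log2 fold change 1.17, standard error 0.44). Its differences were 0.42 in experiment 1 and 1.93 in experiment 2, and it did not pass without the Cyc or without the Wt pool of experiment 2. The pools of both genes did not overlap, which held for 5 of the 11 genes, all with Cyc above, beside 18.5% of all genes. The family members that carry the latent ligand did not pass, of which Ltbp1 and Ltbp3 were named after their values were seen. Ltbp3 had a log2 fold change of 0.84 (0.33), Ltbp4 of -0.07 (0.25) and Ltbp1 of -0.58 (0.37), with intensities of 251.9 and 457.9 for Cyc against 454.1 and 583.9 for Wt cells at Ltbp1. Of the integrin chains that bind the latent complex, Itgb5 had 0.95 (0.35) and Itgav 0.22 (0.45), and Furin, the protease that cleaves the propeptide, had -0.02 (0.29).

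The 8 measured signal transducers had log2 fold changes from -0.20 to 0.24 with a median of -0.11, and the pools of all 8 overlapped. Smad4, the shared partner of the receptor-activated Smads, was at 1930.4 and 2805.3 for Cyc against 2410.0 and 2689.3 for Wt cells (-0.13, standard error 0.29). Smad1, which acts below Acvrl1, had 0.24 (0.26), Smad5 had -0.20 (0.36), and Tab2, an adaptor of the kinase TAK1, had -0.13 (0.28).

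Of the 12 inhibitors none passed, and their median was -0.00. Smad7, which blocks the receptors and is itself a target of the pathway, was at 1332.4 and 1841.5 for Cyc against 1665.1 and 1575.7 for Wt cells (-0.05, standard error 0.27). Dcn, a proteoglycan that binds the ligand, had -0.01 (0.29), Fkbp1a, which holds Tgfbr1 inactive, had 0.14 (0.24), and Skil, a repressor of Smad transcription, had -0.12 (0.39). Each Cyc pool exceeded each Wt pool for 2 of the 12, beside 18.5% of all genes. These were Bambi and Pmepa1, both named after their values were seen. Bambi, a receptor-like decoy without a kinase domain, was at 648.5 and 680.6 for Cyc against 407.9 and 400.8 for Wt cells, which gave a log2 fold change of 0.69 (0.22) with an unadjusted p of 0.0281 (limma, adjusted p = 1) that missed the 2-fold threshold.

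Of the 6 genes that rose, 4 were target genes. Of 17 measured, 4 rose, none fell and 13 did not pass, where 0.911% of all genes rose and 0.126% fell. All 17 had a fitted log2 fold change above 0, from 0.14 to 1.90. The share of all genes above 0 is not given here, and this list was picked with earlier results of these arrays known. The 17 signs alone therefore do not establish a shared rise. The median was 0.69, with 0.34 in experiment 1 and 1.16 in experiment 2. For all tested probe sets these medians were -0.02, -0.1 and 0.06. The direction was not always the same in both experiments. Col1a1, Fn1, Lox, Timp1 and Tnc had differences from -0.49 to -0.02 in experiment 1 and from 0.77 to 2.19 in experiment 2. Cdkn1a had 0.38 and -0.04. These genes were named here after their values were seen. Each Cyc pool exceeded each Wt pool in 9 of the 17, beside 18.5% of all genes. Postn, the matricellular protein periostin, was at 2404.9 and 3992.2 for Cyc against 881.1 and 761.6 for Wt cells (log2 fold change 1.90, standard error 0.33). Ccn2, connective tissue growth factor, averaged 6788 ± 1013 in Cyc and 2082 ± 433 in Wt cells (SD, n = 2 pools each). Eln, the elastin gene, averaged 1373 ± 284 in Cyc and 475.4 ± 80.8 in Wt cells, which gave a log2 fold change of 1.49 (0.28) that was nearly equal in the experiments, 1.54 and 1.45. Nox4, an oxidase gene, was at 121.0 and 286.7 for Cyc against 67.4 and 81.8 for Wt cells (1.17, standard error 0.44), and did not pass without the Cyc pool of experiment 2 or without either Wt pool. The matrix genes Col3a1, Col1a2 and Bgn and the contractile gene Acta2 had log2 fold changes of 0.44 (0.33), 0.69 (0.34), 0.77 (0.28) and 0.49 (0.45).

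**Figure D4:**
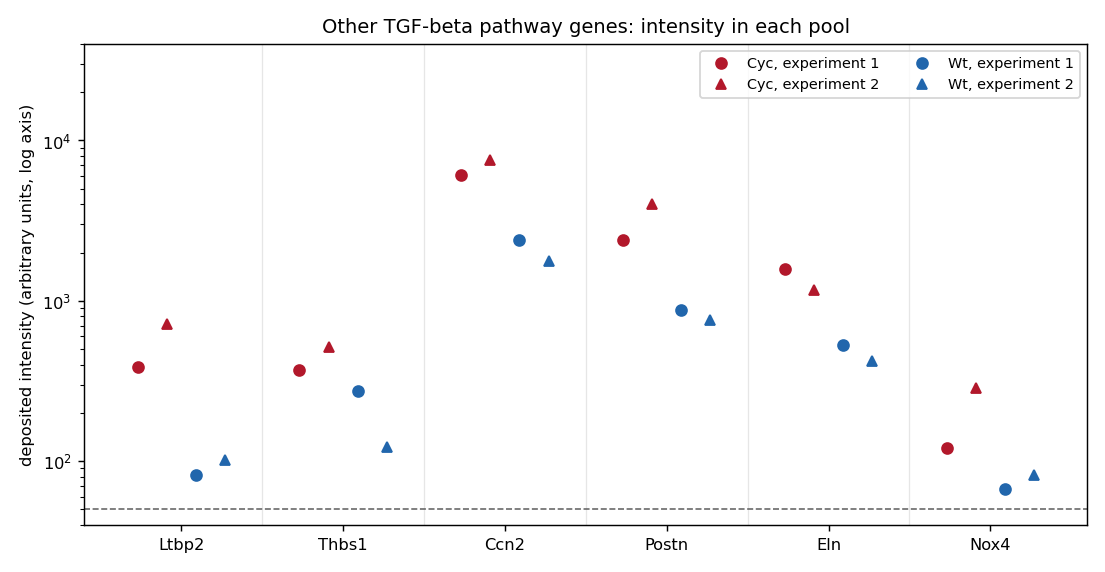
Deposited intensity (log axis) in each pool of the 6 pathway genes past the thresholds, coloured red for Cyc and blue for Wt, with circles for experiment 1, triangles for experiment 2 and a dashed line at 50. For all 6 genes each Cyc point is above each Wt point, and the Cyc and Wt pools of experiment 1 lie close together for Thbs1 (369.8 and 273.3). The genes were chosen by these same values, and each Cyc pool exceeds each Wt pool in 18.5% of all genes.

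The 9 markers of smooth muscle and pericytes, of which Acta2 and Tagln are also among the target genes, summed to 13465.8 and 25092.1 for Cyc against 11137.2 and 15603.6 for Wt cells, higher in Cyc cells within each experiment. Of the 8 that could be tested Kcnj8 and Abcc9 rose past the thresholds, beside 0.911% of all genes. Both lay near a threshold, Kcnj8 with an unadjusted p of 0.0466 (limma) and Abcc9 with a log2 fold change of 1.0. Abcc9 is also among the genes that the study selected from these same arrays. Cnn1 lay below 50 in every pool. The 8 fibroblast markers, of which Col1a1 and Col3a1 are also among the target genes, summed to 46604.6 and 44612.4 for Cyc against 51659.1 and 34503.1 for Wt cells, lower in Cyc in experiment 1 and higher in experiment 2, and none passed. The 8 cardiomyocyte markers summed to 2076.7 and 1877.6 for Cyc against 3519.6 and 2281.8 for Wt cells. Of the 7 that could be tested, Myl2 and Mb fell past the thresholds, beside 0.126% of all genes. Their log2 fold changes were -1.15 (standard error 0.31) and -1.11 (0.41). Both are among the genes that the study selected from these same arrays. Each Cyc pool lay below each Wt pool in 3 of the 7, beside 7.49% of all genes. Ryr2 lay below 50 in every pool. Ly6a, the gene of Sca-1, was at 13368.3 and 11587.5 for Cyc against 14050.6 and 10561.6 for Wt cells. The part of the cell types in the values of the target genes was not tested.

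Of 10 measured genes around Eng and Acvrl1, none passed and the median was -0.13. Each Cyc pool lay above each Wt pool in 2 and below in 2, beside 18.5% and 7.49% of all genes. Id1 and Id3, transcriptional regulators induced by Smad1 and Smad5, were lower in Cyc cells in both experiments, with log2 fold changes of -0.24 (standard error 0.26) and -0.19 (0.24). Id1 was at 7689.9 and 6284.1 for Cyc against 9092.6 and 7397.0 for Wt cells, with the pools overlapping, and Id3 at 5522.8 and 4648.3 for Cyc against 5973.7 and 5582.0 for Wt cells without overlap. Id2, of the same family, went the other way, at 1498.3 and 1545.9 for Cyc against 1307.1 and 1115.9 for Wt cells (0.33, standard error 0.23), as did Tmem100 with 0.55 (0.24), both without overlap and named after their values were seen. Bmpr2, the type II receptor that works with Acvrl1, was at 1485.3 and 5019.5 for Cyc against 2713.3 and 4856.7 for Wt cells, which again parts the experiments rather than the genotypes. Gdf2 and Bmp10, the ligands of Acvrl1 with the highest affinity, did not reach 50 on 2 arrays and were not tested.

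For each ligand or receptor gene the closest patterns over the 4 pools were sought among the tested probe sets with 1 gene symbol, by the root mean square difference of log2 values after subtracting each probe set's mean. With only 4 pools such closeness is common, and the number of genes within 0.1 log2 units ran from 73 for Tgfbr3 to 1519 for Tgfbr2. The closest genes were Vegfa and Cpt2 for Tgfb1, Ahr and Klhl24 for Tgfb2, Mgat2 and Itsn1 for Tgfb3, and Zfp397 and Rp2 for Tgfbr1. They were Ccpg1 and Zfp958 for Tgfbr2, Yipf4 and Prg4 for Tgfbr3, Otud5 and Garre1 for Eng, and R3hdm4 and P4ha1 for Acvrl1. Their distances ran from 0.0091 for both neighbours of Tgfbr2 to 0.030 for Prg4.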

How the data were processed

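RNA (250 ng) of freshly isolated Cyc and Wt cells, 2 pools each, was hybridised to Affymetrix GeneChip Mouse 430 2.0 arrays. The authors normalized the arrays in Resolver 7.2 and deposited probe set intensities on a linear scale. The background correction and the summary method are not given in the sources used here. The intensities ran from -517 to 19512, and 5784 to 7231 per array were below 0. After leaving out 64 control probe sets, 45037 remained. Genes were named from the annotation of the array's probes, and Ly6a from the probe set the study lists for it. Lrrc32 and Fbn1 were not analysed here, and some genes are not reported here.

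Negative values were replaced by 0 and log2(intensity + 16) was computed. limma 3.58.1 (R 4.3.3) was then fitted to the 20680 probe sets that reached 50 on 2 or more arrays, two-sided, with 2 residual and, from the moderation of variances, 2.68 prior degrees of freedom, and p-values were adjusted by Benjamini-Hochberg over all of them. A call needs a 2-fold change, as in the study, together with an unadjusted limma p under 0.05. The study's Resolver error model was not run. Since pools, not single animals, were hybridised, p-values reflect only how far these pools vary. The procedure was tested on simulated data.

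The ligand and receptor genes and the role lists were chosen with earlier results of these data known. The named genes are the 8 genes, up to 4 of the brightest members of each list, its members past the thresholds, and the 2 closest patterns. Same-numbered arrays deviated from their group means together (correlation 0.447 over the tested probe sets), and control transcripts part the numbers into batches, so values within each experiment are given. Alternatives were other pseudocounts, filters, scalings, a trended prior, the methods' t-test, the block and leaving out each array.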

Additional observations from a re-analysis of the deposited data

How the results depend on the processing

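Under 14 alternatives the 13 tested probe sets of the ligands and receptors gave 167 values that kept their direction and stayed outside the thresholds, 11 with the opposite sign and 3 past the thresholds. No probe set passed as higher under any alternative, and none passed as lower except 3 without the Cyc pool of experiment 2. With the replicate number as a block 0 passed in either direction, and the median of the 8 genes was -0.18. Tgfbr2, at 0.00, was -0.02 with quantile normalization and also when the block was added to it, a setting chosen after seeing the data. When each pool was left out, in fits that mix genotype with experiment and assume the lone pool of a group to vary like the other group's, Tgfbr2 ran from -0.19 to 0.19 (-0.03 without the Wt pool of experiment 1), Tgfbr1 from -0.51 to 0.39 (0.18 without the Wt pool of experiment 2), Tgfbr3 from -1.02 to 0.33, Tgfb1 at 1420653_at from -0.02 to 0.35, and Tgfb2 at 1450923_at from -1.28 to 0.08 and at 1450922_a_at from -1.17 to 0.38 (0.22 without the Wt pool of experiment 2). The median of the 8 genes ran from -0.43 to 0.26, the number of ligand and receptor probe sets called lower from 0 to 3, of pathway genes called higher from 4 to 13 and called lower from 0 to 1, and of all tested probe sets called higher from 117 to 581 and lower from 29 to 1050. Of all tested probe sets 152 were higher and 24 lower. The count of lower ones was 46 with a pseudocount of 1, 37 without a filter, 47 with the block, 48 with the block and quantile normalization, and 7 with the methods' t-test. The count of higher ones was 93 with a pseudocount of 50 and 47 with the methods' t-test. The causes were not tested. Ltbp2, Ccn2, Postn and Eln passed under all 14 alternatives, Thbs1 did not under 5 and Nox4 did not under 6. Intensities near 50, as for Tgfb1 at 1445360_at, lie near the limit for testing.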
